A study of Saccharomyces cerevisiae with 12 samples.

Results

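Mitochondria carry ribosomes of their own, built from ribosomal RNA of the mitochondrial genome and from proteins that are almost all encoded in the nucleus, made in the cytosol and imported. In budding yeast these ribosomes make the few membrane subunits of the respiratory chain and the ATP synthase that the mitochondrial genome still encodes, so the proteins are needed for growth by respiration and not for growth by fermentation. Many of their messages are known to be bound by the RNA-binding protein Puf3. The genes described here are 60 nuclear genes whose names begin with MRPL, MRPS, RSM or MRP, taken by systematic name from a fixed list, 25 of them for the small subunit and 35 for the large subunit. They are 60 of the 6204 rows of the table. The list does not hold every gene with such a name, and MRP8 was not included. Each of the 60 had 1 row, and each symbol in the RefSeq gene table was the mitochondrial ribosomal name given here.

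The arrays compared RNA of san1 cells with RNA of SAN1 cells directly, both on the same array, 6 times for cells grown in the medium the labels call YC and 6 times for cells grown in YEPD, a rich medium. The SAN1 product is a nuclear ubiquitin ligase known for sending misfolded proteins to degradation. The labels give neither the san1 allele, the strain background, the composition of YC nor the stage of growth. In each medium the san1 RNA was in channel 2 on arrays 1 to 3 and in channel 1 on arrays 4 to 6, which balances the dyes. The descriptions of YC arrays 1 to 3 say YEPD, against their titles and source names, which were followed. All values below are log2 ratios of san1 over SAN1, so that a positive value means more message in san1 cells. The base of the logarithm and the numerator are not stated. Base 2 was assumed, and the numerator was set by the SAN1 row, which ran from -4.57 to -2.69 on the YC arrays and from -3.94 to -3.39 on the YEPD arrays. If the base were e, the folds would be larger and the tests the same. The labels do not say whether each array had its own culture. The p-values therefore measure only how much the arrays differ, which may be technical variation.

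All 60 genes were measured well enough to be tested, 54 of them on all 12 arrays, among 5890 genes tested. A linear model with a mean for each medium and a dye term was fitted to all genes with limma. A gene was called changed at an adjusted p under 0.05 over all genes. After the signs were turned, arrays of opposite dye orientation correlated at 0.0467 to 0.676 across all genes in YC and at -0.399 to -0.0889 in YEPD. In YEPD many ratios thus changed sign with the dye orientation, and the san1 value there is the mean over both orientations.

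In YC, the mitochondrial ribosomal protein messages stood higher in san1 cells, by little. Of the 60 genes, 15 rose, 0 fell and 45 did not pass the test. In the same fit, 13% of all tested genes rose and 11.8% fell. The fitted changes of the 15 lay between 0.11 and 0.24, or 1.08-fold to 1.18-fold. The median over the 60 genes was 0.09, against 0.00 over all genes tested (-0.00159), and 53 of the 60 lay above 0, against 49.3% of all genes. At an unadjusted p under 0.05, 29 of the 60 were higher and 0 lower, against 19.4% of all genes higher and 18.7% lower. Of the 54 genes with 12 values, 13 were above 0 on every YC array, against 12.6% of all genes with 12 values. The count of calls leaned on single arrays, since it was 29 without YC array 1, where 14.4% of all genes rose, and 10 without YC array 4, where 10.7% did.

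In YEPD, 0 of the 60 passed in limma's fit, where 2.04% of all tested genes did, 1.71% higher and 0.323% lower. Their median was -0.02, against 0.00 over all genes tested (0.00202), and 18 of the 60 lay above 0. RSM18 (YER050C), a small subunit protein of the bS18 family, was the only one with an unadjusted p under 0.05 (-0.13, SE 0.049, unadjusted p = 0.018, adjusted p = 0.32). At that unadjusted threshold 0 of the 60 were higher and 1 was lower, against 6.06% and 3.79% of all tested genes. RSM18 was also the lowest of the 60 in YEPD. The highest there was MRPL10 (YNL284C), of the uL15 family, at 0.04 (adjusted p = 0.74). The 6 YEPD values of MRPL10 ran from -0.08 over a median of 0.04 to 0.14. Of the 54 genes with 12 values, 0 were above 0 on every YEPD array, against 3.7% of all such genes.

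**Figure D1:**
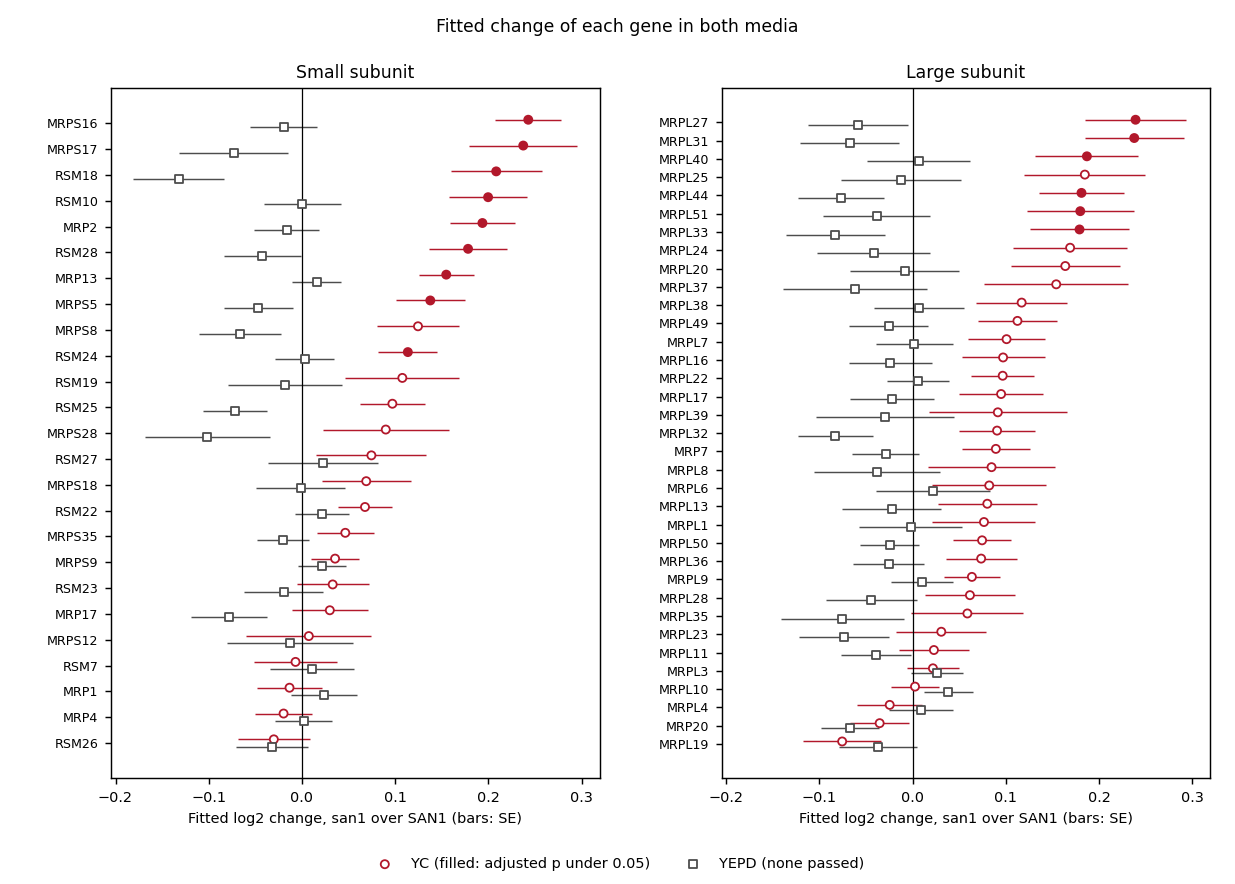
Fitted log2 change of san1 over SAN1 for each of the 60 genes (horizontal axis), with YC as circles and YEPD as squares, bars showing the standard error and filled circles marking an adjusted p under 0.05. The 15 filled genes lie between 0.11 and 0.24 in YC, and their YEPD values lie between -0.13 and 0.02.

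The small subunit binds the message and holds the decoding centre. Of its 25 genes, 9 rose in YC (36%, against 13% of all tested genes), 0 fell and 16 did not pass. MRPS16 (YPL013C), of the bS16 family, had the lowest p of the 60. Its 6 YC values ran from 0.07 over a median of 0.27 to 0.38, and its 6 YEPD values from -0.25 over a median of -0.04 to 0.29. The fitted change was 0.24 in YC (SE 0.036, n = 6 arrays, adjusted p = 0.00073) and -0.02 in YEPD (SE 0.036, adjusted p = 0.94). All YC arrays thus lay above 0, while the YEPD arrays lay on both sides of it, arrays 1 to 3 above and arrays 4 to 6 below, and the media overlapped.

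MRP2 (YPR166C), of the uS14 family, behaved alike. It ran from 0.05 over 0.18 to 0.34 on the YC arrays and from -0.28 over -0.03 to 0.24 on the YEPD arrays, with a fitted 0.19 in YC (SE 0.035, adjusted p = 0.0024) and -0.02 in YEPD (adjusted p = 0.94). RSM10 (YDR041W), of the uS10 family, ran from 0.04 over 0.20 to 0.42 in YC and from -0.21 over 0.01 to 0.26 in YEPD, with a fitted 0.20 in YC (SE 0.041, adjusted p = 0.0051) and 0.00 in YEPD (0.000566, adjusted p = 1.00). For MRPS16, MRP2 and RSM10, the mean of YC arrays 1 to 3 (0.34, 0.29 and 0.28) was above that of YC arrays 4 to 6 (0.14, 0.10 and 0.12). Without a dye term the call of MRP2 in YC was lost (adjusted p = 0.055).

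Other small subunit genes were higher on YC arrays 4 to 6 than on arrays 1 to 3. RSM18 ran from 0.07 over 0.20 to 0.37 on the YC arrays and from -0.34 over -0.10 to 0.03 on the YEPD arrays. Its fitted change in YC was 0.21 (SE 0.049, adjusted p = 0.0091). It was the one gene of the 54 with 12 values whose YC arrays all lay above its YEPD arrays, against 2.11% of all genes with 12 values. The reverse order was found for 0 of the 54, against 1.72% of all such genes. RSM28 (YDR494W), a protein without a bacterial counterpart that has been linked to the start of translation in yeast mitochondria, ran from -0.06 over 0.17 to 0.43 in YC and from -0.17 over -0.02 to 0.03 in YEPD. Its fitted change in YC was 0.18 (SE 0.042, adjusted p = 0.0091), and 5 of its 6 YC arrays were above 0.

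MRP13 (YGR084C), likewise without a bacterial counterpart, was measured on 5 YC arrays, where it ran from 0.10 over 0.17 to 0.25, and on 6 YEPD arrays, from -0.12 over 0.03 to 0.12. Its fitted change was 0.15 in YC (SE 0.029, adjusted p = 0.0037). MRPS17 (YMR188C) of the uS17 family (0.24, SE 0.058, adjusted p = 0.011), MRPS5 (YBR251W) of the uS5 family (0.14, SE 0.037, adjusted p = 0.017) and RSM24 (0.11, SE 0.032, adjusted p = 0.021) completed the 9. The call of RSM24 was lost without YC array 4 (adjusted p = 0.055) or YC array 5 (0.071), and that of MRPS5 without YC array 4 (0.051).

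The 16 small subunit genes that did not pass in YC lay between -0.03 for RSM26 and 0.12 for MRPS8, of the uS8 family, and 12 of them were above 0. RSM26 and MRP1 (-0.01) are both related in sequence to superoxide dismutase. MRPS12 of the uS12 family, part of the decoding centre, stood at 0.01 and its neighbour on the chromosome RSM19, of the uS19 family, at 0.11 (adjusted p = 0.22). RSM7 of the uS7 family stood at -0.01 and MRP4 of the uS2 family at -0.02. RSM23, the yeast counterpart of the human protein DAP3, stood at 0.03.

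The large subunit holds the peptidyl transferase centre and the exit tunnel for the new protein. Of its 35 genes, 6 rose in YC (17.1%, against 13% of all tested genes), 0 fell and 29 did not pass. MRPL31 (YKL138C), a protein found in mitochondrial and not in bacterial ribosomes, had the lowest p among them. It ran from 0.08 over 0.21 to 0.40 on the YC arrays and from -0.25 over -0.05 to 0.13 on the YEPD arrays, with a fitted 0.24 in YC (SE 0.053, adjusted p = 0.0072) and -0.07 in YEPD (SE 0.053, adjusted p = 0.79). MRPL27 (YBR282W), also particular to mitochondria, ran from -0.01 over 0.25 to 0.42 in YC and from -0.22 over -0.07 to 0.11 in YEPD. The fitted values were 0.24 in YC (SE 0.054, adjusted p = 0.0074) and -0.06 in YEPD (adjusted p = 0.83). YC arrays 2 to 5 lay above all 6 YEPD arrays for MRPL31, and YC arrays 2 to 6 did for MRPL27.

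MRPL44 (YMR225C) and MRPL51 (YPR100W) have no bacterial counterpart either. MRPL44 ran from 0.09 over 0.13 to 0.35 in YC and from -0.27 over -0.07 to 0.12 in YEPD, with a fitted 0.18 in YC (SE 0.046, adjusted p = 0.013). MRPL51 ran from -0.11 over 0.21 to 0.38 in YC and from -0.13 over -0.06 to 0.16 in YEPD, with a fitted 0.18 in YC (SE 0.057, adjusted p = 0.037). The 2 called genes with bacterial counterparts were MRPL40 and MRPL33.

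MRPL40 (YPL173W), of the uL24 family, ran from 0.01 over 0.21 to 0.32 in YC and from -0.24 over 0.06 to 0.18 in YEPD (fitted 0.19 in YC, SE 0.055, adjusted p = 0.026). MRPL33 (YMR286W), of the uL30 family, ran from 0.07 over 0.19 to 0.31 in YC and from -0.32 over -0.10 to 0.26 in YEPD (fitted 0.18 in YC, SE 0.053, adjusted p = 0.027). All 6 YC values of both genes were above 0, and both overlapped between the media. These large subunit calls rested on single arrays more than those of the small subunit. MRPL44 lost its call without YC array 3 (adjusted p = 0.053) or 6 (0.056), MRPL40 and MRPL51 each lost it without YC array 2, 3, 4 or 5 (0.057 to 0.12), and MRPL33 without 3, 4, 5 or 6 (0.066 to 0.09).

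Most other large subunit genes lay above 0 in YC without passing. Of the 29 that did not pass, 26 were above 0, the highest being MRPL25 (YGR076C) at 0.18 (SE 0.065, adjusted p = 0.054). MRPL25 ran from 0.01 over 0.19 to 0.33 on the YC arrays and from -0.24 over -0.03 to 0.37 on the YEPD arrays, so that its highest value of all was on a YEPD array. The lowest of the 60 in YC was MRPL19 (YNL185C), of the uL11 family of the factor-binding region (-0.08, adjusted p = 0.20). It ran from -0.26 over -0.07 to 0.10 in YC and from -0.13 over -0.02 to 0.03 in YEPD. MRP20 of the uL23 family, at the mouth of the exit tunnel, stood at -0.04 in YC and MRPL4 of the uL29 family, its neighbour in bacterial ribosomes, at -0.02. MRPL32, whose product is matured by the mitochondrial inner membrane protease known as m-AAA, stood at 0.09 in YC (adjusted p = 0.12) and -0.08 in YEPD (adjusted p = 0.55). MRP7, of the bL27 family, stood at 0.09 (adjusted p = 0.09).

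The subunits had the same median change in YC, with 0.09 over the 25 small subunit genes and 0.09 over the 35 large subunit genes. The difference between the medians, small minus large, was -0.000708. By array it ran from -0.06 on YC array 4 to 0.05 on YC array 1. The share of calls differed (36% for the small and 17.1% for the large subunit), and so did the precision, with a median SE of 0.039 for the small and 0.048 for the large subunit. Without YC array 1, 12 of 25 small subunit genes and 17 of 35 large subunit genes rose. Without YC array 3 the counts were 9 and 2, without array 4 they were 7 and 3, and without array 5 they were 8 and 3. Of all tested genes, 13% rose in the fit of all arrays and 14.4% without YC array 1. Without array 3, 4 or 5 the share of all genes was 9.2%, 10.7% and 10.3%. In YEPD the medians were -0.02 for the small subunit and -0.03 for the large subunit, with 0 calls in either.

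By descent of the protein family, 7 of the 21 genes without a bacterial counterpart rose in YC and 8 of the 38 with one, RSM22 being placed in neither. Within the large subunit these were 4 of 12 (33.3%) and 2 of 23 (8.7%), and within the small subunit 3 of 9 (33.3%) and 6 of 15 (40%). Of all tested genes 13% rose. Among the 23 large subunit genes with a bacterial counterpart, 20 lay above 0, against 49.3% of all genes. At an unadjusted p under 0.05 in limma's fit, 11 of the 23 were higher and 0 lower, against 19.4% and 18.7% of all genes. The medians in YC were 0.16 and 0.08 within the large subunit and 0.07 and 0.11 within the small subunit. These differences by descent were not tested.

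**Figure D2:**
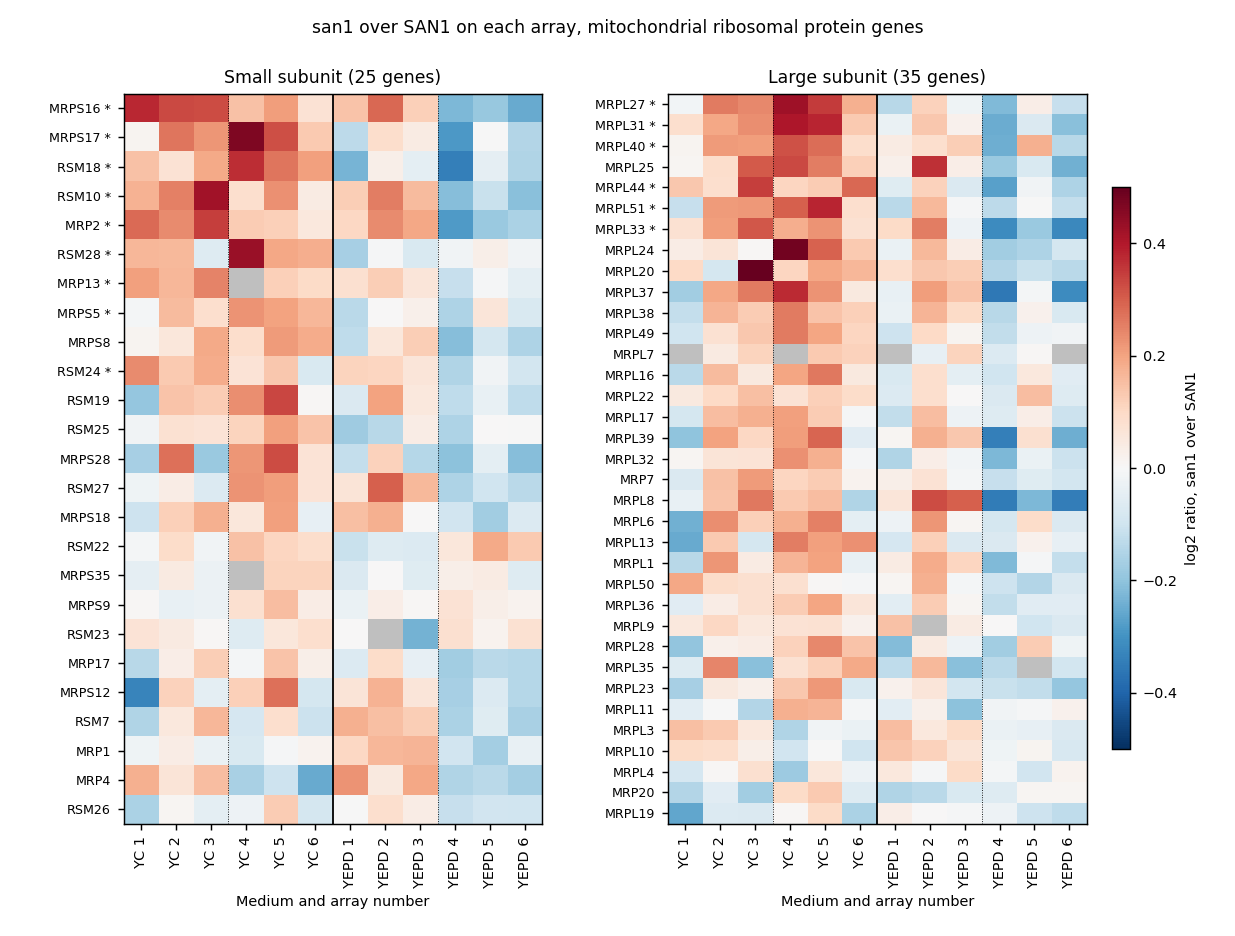
Log2 ratio of san1 over SAN1 for each gene (rows, ordered by the fitted YC change, asterisks marking the 15 called in YC) on each array (columns, YC then YEPD, dotted lines where the dye orientation changes), with empty cells in grey. In YEPD arrays 4 to 6 most genes are blue, while in YC red prevails on all arrays but the first.

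The median of the 60 genes varied from array to array. It was -0.02, 0.10, 0.11, 0.13, 0.19 and 0.06 on YC arrays 1 to 6, and -0.03, 0.11, 0.02, -0.14, -0.03 and -0.10 on YEPD arrays 1 to 6. On YC array 5, 93.3% of the measured genes were above 0, and on YC array 1 42.4%. On YEPD array 2, 89.7% were above 0, and on YEPD array 4 8.33%. Of all tested genes, between 49.7% and 50.8% were above 0 on any array. The median was thus above 0 on 5 of 6 YC arrays, and on YEPD array 2 it was as high as on YC arrays 2 and 3.

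Dye orientation went with much of the YEPD spread. Over arrays 1 to 3 and over arrays 4 to 6, the mean of a gene had a median of 0.06 and 0.13 in YC, and of 0.04 and -0.10 in YEPD. With a dye term for each medium, the term was above 0 for 20 of the 60 genes in YC (median -0.05) and for 50 of the 60 in YEPD (median 0.07). The median dye effect of these genes thus ran in opposite directions in the media, whereas the common dye term assumes 1 direction. Fitted with separate terms, 20 of the 60 rose in YC, 10 of them in the large subunit, and 15 were higher in YC than in YEPD, where 14.8% and 7.11% of all tested genes were. In YC, 41 of the 60 genes were above 0 in the means of both orientations (68.3%, against 33.8% of all genes), and all 15 called genes were. Whether the labelling dye has a part in these values was not tested beyond these fits.

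**Figure D3:**
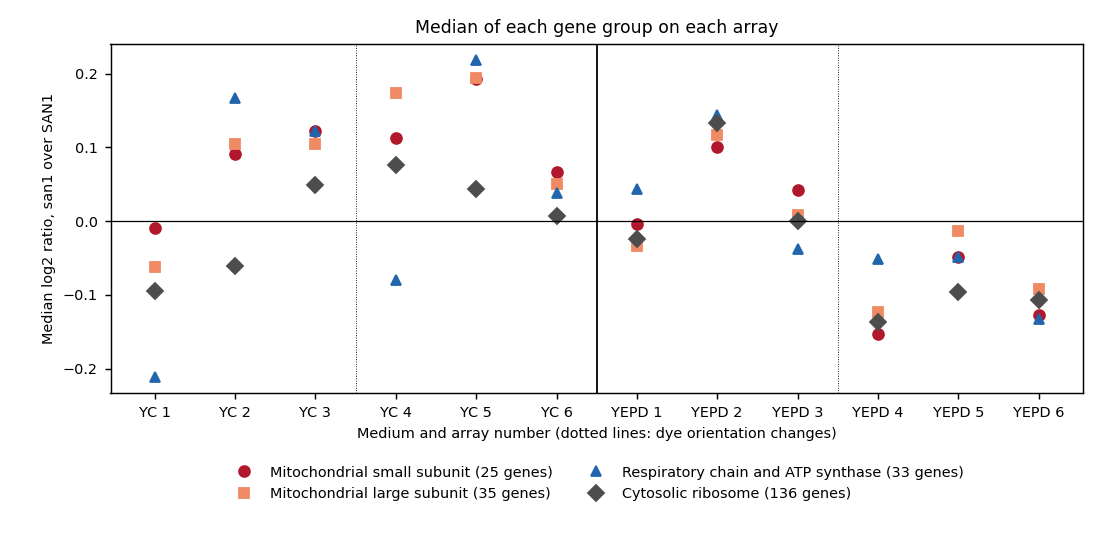
Median log2 ratio of san1 over SAN1 on each array (horizontal axis) for the small and large mitochondrial ribosomal subunits, the nuclear genes of the respiratory chain and ATP synthase, and the cytosolic ribosomal protein genes. Both mitochondrial subunits lie above 0 on YC arrays 2 to 6, and all 4 groups lie below 0 on YEPD arrays 4 to 6.

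The difference between the media was tested directly, as the san1 change in YC minus that in YEPD. It was positive and past the threshold for 12 of the 60 genes and negative for 0, against 5.48% and 4.26% of all tested genes, or 9.75% in either direction. At an unadjusted p under 0.05, 22 were positive and 0 negative, against 14.2% and 14.7% of all tested genes. The median difference was 0.11, against -0.01 over all genes. RSM18 had the largest difference (0.34, SE 0.069, adjusted p = 0.014), followed by MRPS17 (0.31, SE 0.082, adjusted p = 0.035), MRPL31 (0.31, SE 0.075, adjusted p = 0.028) and MRPL27 (0.30, SE 0.076, adjusted p = 0.032). MRPS16 had the lowest p (0.26, SE 0.05, adjusted p = 0.011), and MRP2 stood at 0.21 (adjusted p = 0.025). Of the 12, 8 were small subunit genes and 4 large subunit genes, and 11 were also called in YC, RSM25 being the exception (0.17, adjusted p = 0.047, with 0.10 in YC and -0.07 in YEPD).

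The number of these calls moved when single arrays were left out. It was 2 without YEPD array 1, 4 or 6, 3 without YC array 6, 4 without YC array 3, 4 or 5, and 18 without YC array 1. The share of all genes with a positive call moved likewise, to 2.16%, 1.87% and 2.17% without YEPD array 1, 4 or 6, to 2.8% without YC array 6, to 3.14%, 3.96% and 3.63% without YC array 3, 4 or 5, and to 7.91% without YC array 1. YEPD arrays 4 and 6 lay closer together (SD of their difference 0.106) than any other pair within a medium, and with both averaged to 1 array 2 genes were called, beside 2.21% of all genes. When arrays n and n plus 3 of a medium were averaged, as if they held the same RNA, 0 of 59 genes tested remained called in limma's fit, where 3 of all 5831 genes were. Within YC, arrays 2 and 5, of opposite dye orientation, were the closest pair (SD of their difference 0.145, r = 0.676). For YC arrays 1 and 4 the SD was 0.209, and for YC arrays 3 and 6 it was 0.23. Whether any such arrays shared RNA is not stated.

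Other genes of mitochondrial translation were compared from lists made by role, beside the 13% of all tested genes that rose in YC. Of 18 tested mitochondrial ribosomal protein genes outside the list of 60, some of them with names of the same kind, 6 rose in YC, 1 fell and 11 did not pass, with a median of 0.11. Of the 18, 61.1% lay above 0, against 88.3% of the 60, and their lower quartile was -0.03, against 0.04. MRP21 (0.22, SE 0.049, adjusted p = 0.0074) and SWS2 (0.18, SE 0.049, adjusted p = 0.019) were among those that rose, as was MRP35 (0.14, SE 0.036, adjusted p = 0.014). RTC6, of the large subunit, fell (-0.16, SE 0.048, adjusted p = 0.031). Of 10 translation factors, RRF1, the ribosome recycling factor (0.12, adjusted p = 0.033), and the initiation factor gene AIM23 (0.12, adjusted p = 0.038) rose, with a median of 0.01 over the 10. Of 14 mitochondrial aminoacyl-tRNA synthetases, MSF1 (0.10, adjusted p = 0.017) and DIA4 (0.11, adjusted p = 0.027) rose, with a median of 0.06.

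Of 13 genes of ribosome assembly and protein insertion, MAM33 (0.20, adjusted p = 0.017) and the ribosomal RNA methyltransferase gene MRM1 (0.09, adjusted p = 0.045) rose, with a median of 0.01. Of 16 translational activators, which bind single mitochondrial messages or help their products, 3 rose, with a median of 0.02. The activator CBP6 of cytochrome b was at 0.14 (SE 0.035, adjusted p = 0.01), PET54 at 0.18 (adjusted p = 0.03) and CBS2 at 0.09 (adjusted p = 0.038). None of these 71 genes passed in YEPD in limma's fit, where 2.04% of all tested genes did. An unadjusted p under 0.05 was found there for 8 of the 71, and for 580 of all 5890 tested genes. The difference between each list and the 60 genes was not tested.

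Among the nuclear genes of the respiratory chain and ATP synthase, 4 of 33 rose in YC and 0 fell, with a median of 0.02. That share was 12.1%, near the 13% of all tested genes. COX13 (0.21, adjusted p = 0.0069) and COX12 (0.20, adjusted p = 0.026), both subunits of cytochrome c oxidase, and QCR6 of the cytochrome bc1 complex (0.11, adjusted p = 0.015) were among them. Their medians by array were -0.21, 0.17, 0.12, -0.08, 0.22 and 0.04 on YC arrays 1 to 6, thus lower on arrays 1 and 4 than on arrays 2 and 5. The 136 cytosolic ribosomal protein genes, whose products translate in the cytosol, had 13 risen (9.56%) and 17 fallen (12.5%) in YC, with a median of 0.00 (0.00415). In YEPD their median was -0.03, close to the -0.02 of the mitochondrial ribosomal protein genes, and by array it was 0.13 on array 2, -0.14 on array 4 and -0.11 on array 6.

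The 60 reading frames differ in length, which the choice of genes did not use. In YC, shorter frames had the higher values, with Pearson's r = -0.35 and Spearman's rho = -0.39 across the 60 genes, which share arrays and are not independent. In YEPD the relation ran the other way (r = 0.35, rho = 0.36). The same directions were found across the 5390 other genes with a length, with r = -0.14 and rho = -0.16 in YC and r = 0.14 and rho = 0.25 in YEPD. The median length was 444 bp for the 15 genes called in YC and 750 bp for the other 45. Of the 9 frames up to 400 bp, 4 rose in YC with a median of 0.15, against 14.3% of other genes of that length with a median of 0.00 (-0.00134). Of the 16 frames over 400 and up to 600 bp, 4 rose with a median of 0.11, against 20.9% of other genes with a median of 0.04. Of the 20 over 600 and up to 900 bp, 3 rose with a median of 0.08, against 17.8% and 0.03. Of the 14 over 900 and up to 1500 bp, 4 rose with a median of 0.05, against 16.3% and 0.01. The genes' median was thus above that of other genes in each of these 4 classes. The small subunit frames were longer, with a median of 795 bp against 645 bp for the large subunit.

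**Figure D4:**
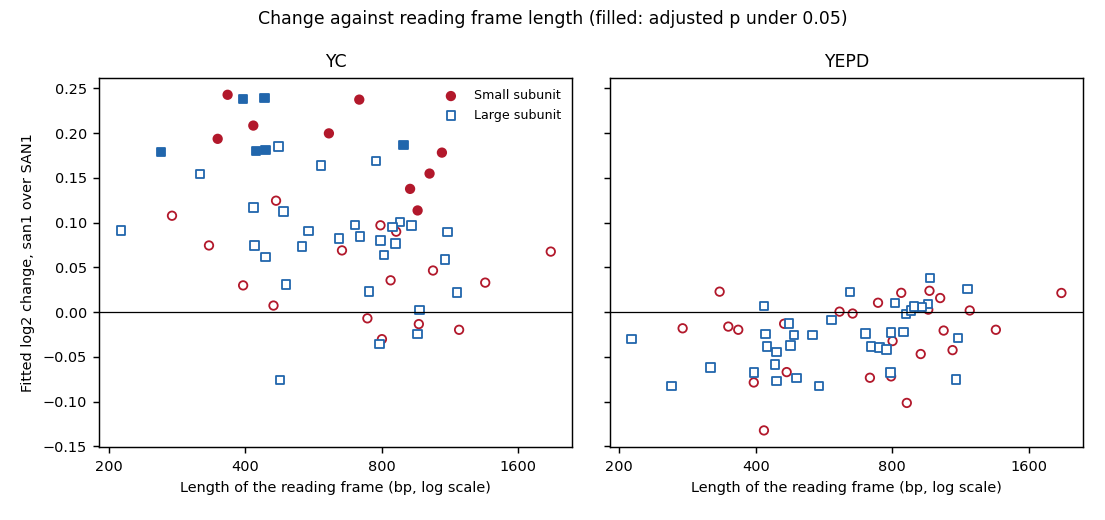
Fitted log2 change of san1 over SAN1 against reading frame length in base pairs (log axis) for the 60 genes, in YC and in YEPD, circles for the small and squares for the large subunit, filled where the adjusted p is under 0.05. In YC the filled genes include MRPL33 at 261 bp and RSM28 at 1086 bp, and in YEPD no point is filled.

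The genes next to the 60 on the chromosomes had a median near that of all genes in YC. Of 104 tested neighbours that are not among the 60, 18 rose in YC and 14 fell, with a median of 0.00 (0.00145). Of all tested genes, 13% rose and 11.8% fell. The difference from the 60 was not tested. Beside the 15 called genes, 7 of 27 neighbours rose and 2 fell, with a median of 0.05. Beside the genes that were not called, 11 of 77 rose and 12 fell, with a median of -0.0065. CMC1, a gene for a copper-binding protein of cytochrome oxidase assembly that diverges from MRPL31, rose by 0.18 (adjusted p = 0.0062). YPR099C, which overlaps MRPL51 on the other strand, rose by 0.19 (adjusted p = 0.043) beside 0.18 for MRPL51 itself. Since it is not stated whether the arrays tell strands apart, the spots of YPR099C and MRPL51 may have read the same RNA. YHL005C, which overlaps MRP4 on the other strand, fell (-0.15, adjusted p = 0.017), while MRP4 stood at -0.02 and was not called. GCV2, which diverges from MRPS17, rose by 0.17 (adjusted p = 0.014), while ENA1, which diverges from RSM10, fell by 0.14 (log2 -0.14, adjusted p = 0.011). SSH1, downstream of MRPL27, fell (-0.13, adjusted p = 0.0075).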

How the data were processed

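The deposited table holds 1 log ratio, read here as log2, for each array and gene, as the authors made it. How scanning, background and normalization were handled is not given in the sources used here, nor is the log base. Rows were matched to the RefSeq gene table of assembly R64 by locus tag (5704 of 6204 rows) or synonym (42), used for names, order and length. Rows of the same gene were averaged, the median of each array was set to 0, and signs were turned to san1 over SAN1. A gene was tested if each medium gave 2 or more values per dye orientation (5890 genes). limma 3.58.1 in R 4.3.3 fitted a mean per medium and 1 dye term, and tests were two-sided with Benjamini-Hochberg adjustment over all genes. SE is the moderated standard error. The code was tested on simulated data. The genes, lists and comparisons were chosen with earlier results of these data known. Genes given with values on each array were the called genes of each subunit with the lowest p and the extremes of each medium, and MRPL25, which was chosen after its values were seen. Of the other lists, up to 3 called genes were named, with RTC6, and for the neighbours some of those next to a called gene, with YHL005C next to MRP4. Alternatives covered centring, scaling, dye terms, arrays entering the fit, the array number, filters and the variance model. The number of arrays limits the precision. No sequences are shown.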

Additional observations from a re-analysis of the deposited data

Results flagged for a closer look

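The san1 change differed between the media for 12 of the genes, by the test of the difference itself in limma's fit. All 12 were positive, beside 5.48% of all tested genes positive and 4.26% negative. Without YEPD array 1, 4 or 6 only 2 of the genes were called. With the array number as a block, or with arrays n and n plus 3 averaged, 0 were, where 46 and 3 of all genes were. In the fit of all arrays the differences, YC minus YEPD, were 0.34 for RSM18, 0.31 for MRPS17, 0.31 for MRPL31, 0.30 for MRPL27, 0.26 for MRPS16, 0.26 for MRPL33, 0.26 for MRPL44, 0.22 for RSM28, 0.21 for MRP2, 0.18 for MRPS5, 0.17 for RSM25 and 0.14 for MRP13. In 119 groups of 6 arrays, 2 values stood apart from the other 5 by Dixon's test, where chance gives about 1 in 20. MRPL38, of the uL14 family, was at -0.12 on YC array 1, against 0.12 to 0.26 on the other YC arrays. MRPL11, of the uL10 family of the stalk base, was at -0.21 on YEPD array 3, against -0.05 to 0.03 on the others. Neither gene was called in either medium.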

How the results depend on the processing

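Of the settings tried, 24 were planned and 3 were chosen after seeing the data, namely leaving out YC arrays 1 and 4, leaving out YC arrays 2 and 5, and averaging YEPD arrays 4 and 6. The 15 calls in YC became 9 without YC arrays 2 and 5 (3 in the large subunit), where 9.73% of all genes rose. With arrays n and n plus 3 averaged, 12 genes were called in YC, 6 in the large and 6 in the small subunit. Of these, 10 were among the 15, and 7.8% of all genes rose. A dye term for each medium gave 10 calls in the large subunit, where 14.8% of all genes rose. The 12 calls of the difference became 7 with arrays scaled to equal MAD, 5 without a dye term, 4 without YC arrays 2 and 5, 2 with YEPD arrays 4 and 6 averaged and 0 with arrays n and n plus 3 averaged. The share of all genes with a positive call moved likewise, from 5.48% to 4.19%, 2.78%, 4.75%, 2.21% and 0% in the same order. With the array number as a block (replicate block), 0 of 59 genes differed between the media, where 46 of all 5833 genes did against 574 without the block. In YC, 13 of 59 rose with the block against 15 without it, beside 8.52% and 13% of all genes. The labels give the numbers no meaning, and same-numbered arrays of the media deviated together at -0.316 to 0.182 across genes, over 0.1 in 1 of 6 pairs, with 1 of 6 YC arrays closest to its own number. Leaving out single arrays gave 10 to 29 calls in YC, 2 to 17 in the large and 7 to 12 in the small subunit, 2 to 18 for the difference, 0 to 0 in YEPD, a median in YC of 0.07 to 0.13, and a small minus large difference of medians of -0.02 to 0.01. Of all genes, 9.2% to 14.4% rose in YC in these fits, and 1.87% to 7.91% had a positive call for the difference. Of all genes, 1462 were called in YC, against 816 with arrays n and n plus 3 averaged, 902 with the block and 944 with YC arrays alone. MRPS16, MRPL31, RSM10 and RSM18 kept their call in YC under every setting tried, leaving aside that of YC arrays 4 to 6 only, and no called gene changed sign under any. With YC arrays 4 to 6 only, 27 genes were called in YC (15 in the large subunit, median 0.18) and 22 for the difference. Of all genes, 10.1% rose in YC and 7.83% had a positive difference in that fit. However, the dye term then comes from YEPD alone. Fitted for each medium, its median over the genes was -0.05 in YC and 0.07 in YEPD. The uncorrected median of those arrays was 0.13, so these values say nothing about stability. The causes of the other changes were not tested, beyond the fewer arrays that some settings hold.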
